A study of Mus musculus with 2 samples.

Results

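Microglia, the resident macrophages of the brain, are recognised in the healthy tissue by a set of surface and secreted products, and 7 of these genes are described here out of 32285 rows of the count table. The surface proteins were Cx3cr1, Tmem119, Siglech, Selplg and Fcrls. Cx3cr1 is the receptor of the neuronal chemokine fractalkine, and Tmem119 is a membrane protein that marks microglia among brain macrophages. Siglech is a member of the Siglec family that signals through the adaptor Tyrobp. Selplg is the ligand of P-selectin, and Fcrls is an Fc receptor-like molecule with a scavenger receptor domain. The secreted products were Olfml3, an olfactomedin-domain matrix protein, and Sparc, a collagen-binding matricellular protein. Several of these genes depend on TGF-beta signalling in microglia, and their loss around amyloid plaques is part of how the disease-associated (DAM) state was first described. The members were the rows with these symbols, and all 7 were counted in both libraries.

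PSAPP mice (genotype APPswe/PS1.delta.E9, APP and presenilin transgenes with familial Alzheimer mutations) received lemborexant (LEM), a dual orexin receptor antagonist, at 30 mg/kg/day, or vehicle (VEH), by daily oral gavage for 30 days, from 9 to 10 months of age. Live CD45lo CD11b+ DAPI- cells were sorted from cortex and hippocampus of 5 mice per treatment, both sexes were used, and each treatment gave 1 pooled single-cell library made by 5′ capture; every mouse carried the transgenes, and no wild-type library was analysed here. The VEH library held 18374 cells with a median of 5971 counts, and the LEM library 24392 cells with a median of 6034. With 1 library per treatment there was no replicate and no test; intervals are 95% and cover counting error only, and differences between treatments and between pools of mice cannot be told apart.

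Levels are given as CPM, the summed counts of a gene in a group of cells per 1000000 counts of the same cells; they are not scaled by transcript length, so they are compared between cells and not between genes. The sort matched its label. Microglial markers (Ctss, C1qa, C1qb, P2ry12) summed to 24644 CPM in VEH and 25167 CPM in LEM, against 3.14 and 3.83 CPM for 5 astrocyte markers and 0.671 and 0.616 CPM for 4 neuron markers. Cells were placed into states by raw counts of genes that are not members: 13148 VEH cells (71.6%) and 17302 LEM cells (70.9%) fell under the minimum of every gate and are called unmarked microglia, although they can hold some counts of gate genes. In unmarked cells 5 oligodendrocyte markers summed to 59.0 and 62.4 CPM and 5 endothelial markers to 14.9 and 11.7 CPM, above the astrocyte and neuron lists. The DAM gate (at least 3 of Cst7, Lpl, Itgax, Gpnmb and Spp1) took 451 VEH and 579 LEM cells. Cells sexed by Xist or Y-linked counts were female for 38.7% in VEH and 42.8% in LEM.

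The 7 genes lie on 5 mouse chromosomes (GRCm38, GENCODE M21, all protein coding). Tmem119 (chromosome 5, 113793729 to 113800516) and Selplg (chromosome 5, 113818536 to 113832644) are neighbours on the minus strand, 18.02 kb apart. Fcrls (chromosome 3, 87250758 to 87263738) and Olfml3 (chromosome 3, 103722222 to 103738001) share a chromosome. Siglech lies on chromosome 7 (55768178 to 55778925), Cx3cr1 on chromosome 9 (119901616 to 120069879) and Sparc on chromosome 11 (55394500 to 55423183). The annotated span of Cx3cr1 covers 3 other genes on its strand, Gorasp1, Csrnp1 and Xirp1, which held 8088 counts over both libraries, so that reads shared with them are uncertain; no annotated gene overlaps the other members.

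RefSeq promoter windows (GRCm38.p6, 250 bases before to 50 after the start) matched 5 of the 7 members, Tmem119 and Selplg being without one. The 150 bases before each start are shown because these 5 members differed below in how far they followed the DAM gate, Cx3cr1 being the most reduced of them, Olfml3 and Sparc less so and Siglech and Fcrls nearly level. Capitals mark the PU.1 core GAGGAA and the SMAD motif CAGACA on either strand.
Cx3cr1, chr9:120068297-120068446, minus strand: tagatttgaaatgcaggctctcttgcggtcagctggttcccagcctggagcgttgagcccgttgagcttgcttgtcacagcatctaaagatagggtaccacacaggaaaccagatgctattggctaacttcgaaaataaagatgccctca
Siglech, chr7:55768034-55768183, plus strand: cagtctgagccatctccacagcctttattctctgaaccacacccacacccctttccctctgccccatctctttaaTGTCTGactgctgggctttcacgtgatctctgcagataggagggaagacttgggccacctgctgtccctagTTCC
Fcrls, chr3:87263525-87263674, minus strand: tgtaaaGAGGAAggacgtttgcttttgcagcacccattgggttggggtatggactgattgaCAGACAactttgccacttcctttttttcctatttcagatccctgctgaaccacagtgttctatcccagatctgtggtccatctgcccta
Olfml3, chr3:103738002-103738151, minus strand: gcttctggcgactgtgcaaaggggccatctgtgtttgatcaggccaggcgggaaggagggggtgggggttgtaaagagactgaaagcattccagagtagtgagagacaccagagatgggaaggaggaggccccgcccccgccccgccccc
Sparc, chr11:55420081-55420230, minus strand: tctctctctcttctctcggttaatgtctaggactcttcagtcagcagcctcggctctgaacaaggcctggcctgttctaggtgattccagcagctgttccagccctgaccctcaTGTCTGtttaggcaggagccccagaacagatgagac
GAGGAA was found in 2 of the 5 whole windows, Siglech (running across the start, so only part is shown) and Fcrls, and in 28.3% of all 32851 windows. CAGACA was found in 3, Siglech, Fcrls and Sparc, and in 21.04% of all. The AP-1 motif TGACTCA was found in 0 of the 5 and in 5.20% of all. A match is a description of the sequence only.

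All 7 genes were detected in nearly every cell. In VEH the share of cells with a count ran from 89.0% for Fcrls to 99.2% for Cx3cr1, and in LEM from 91.9% for Fcrls to 98.9% for Cx3cr1. After thinning each cell to 2000 counts, which left out 1305 VEH and 1215 LEM cells that were shallower, Selplg was found in 98.3% of VEH and 98.1% of LEM cells, Siglech in 84.9% and 86.4%, and Fcrls in 75.3% and 81.9%. A thinned unmarked cell carried a mean of 6.41 of the 7 genes in VEH and 6.53 in LEM, and all 7 were present in 57.4% and 65.3% of them. Most unmarked cells thus carried most of the 7.

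Across states the genes did not behave as 1 programme. In unmarked cells Cx3cr1 stood at 3259 CPM in VEH and 3260 CPM in LEM, and Selplg at 4392 and 4324 CPM. In DAM-gated cells Cx3cr1 was at 1874 and 1839 CPM, Selplg at 2586 and 2758 CPM, and Tmem119 went from 2200 and 2237 CPM to 914 and 1076 CPM. Siglech (1114 and 1190 CPM unmarked, 1074 and 1164 CPM in DAM-gated cells) and Fcrls (1051 and 1320 CPM, 1038 and 1310 CPM) kept nearly the same share of counts. The plot of levels by state shows the same split in both libraries.

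**Figure D1:**
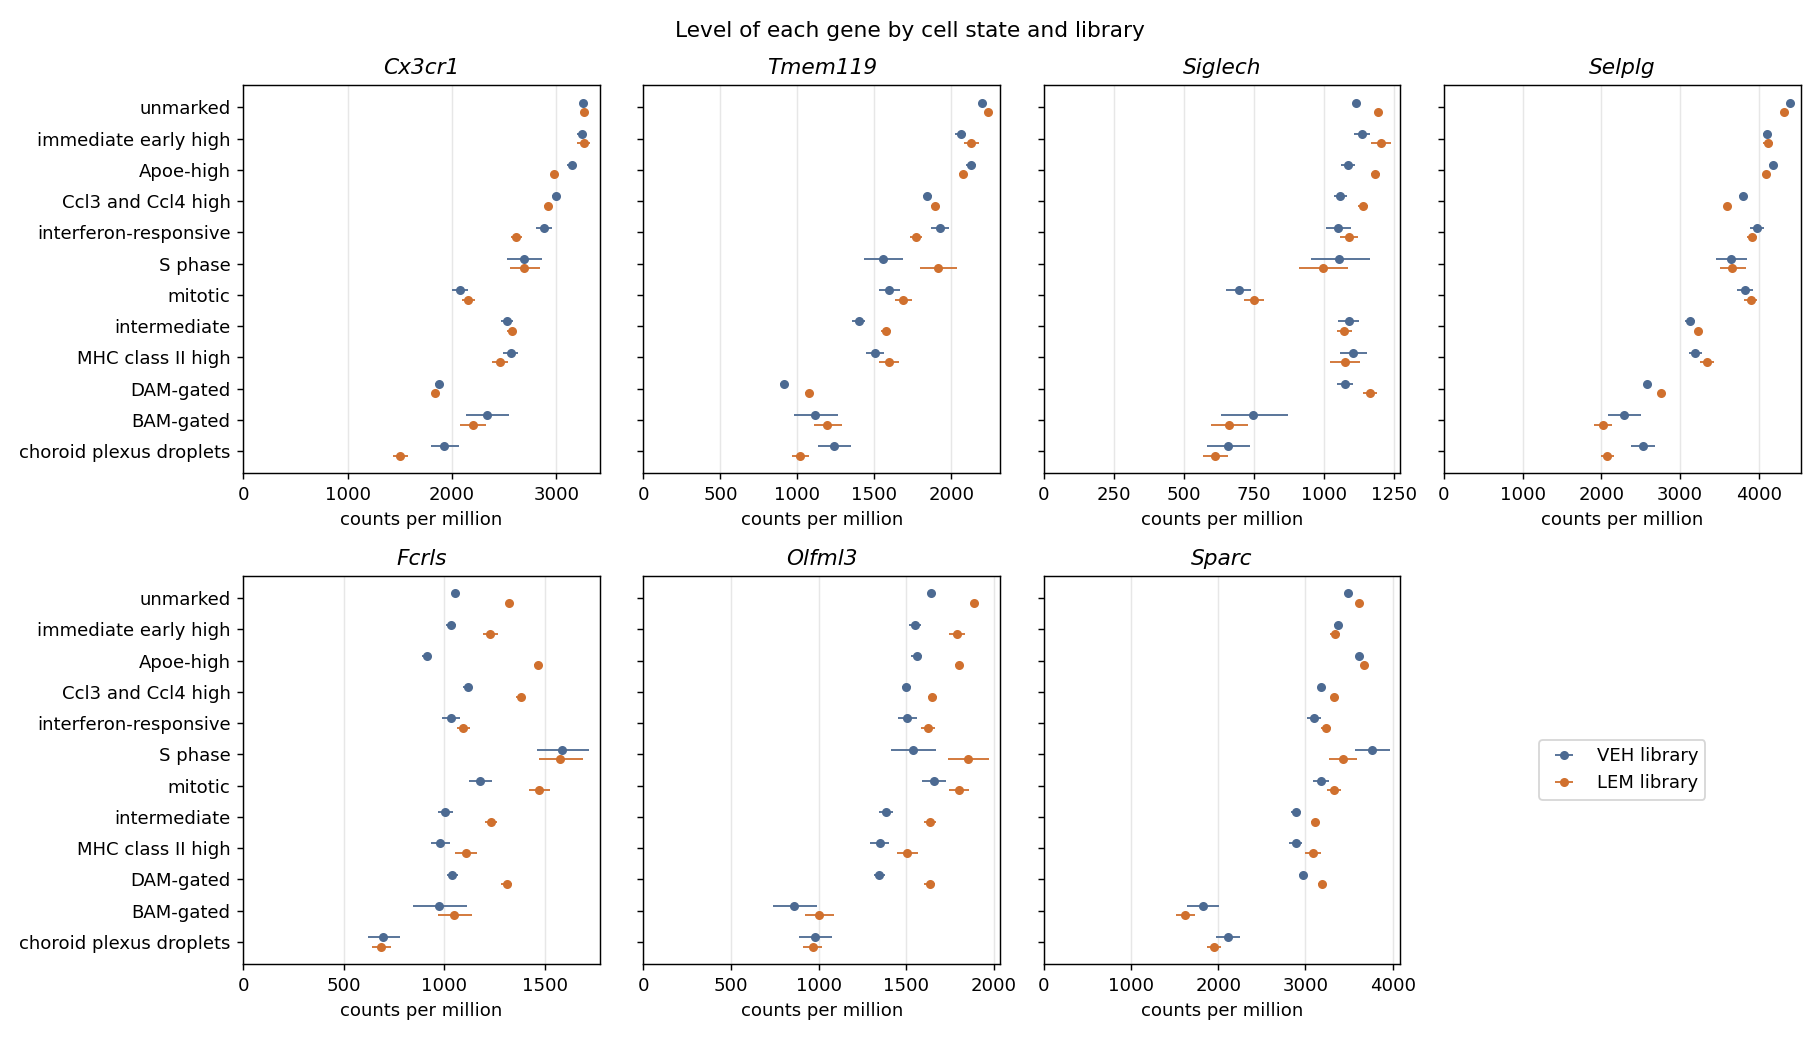
Level in CPM (x axes, each from 0) of the 7 genes in 12 gated states (y axis) of the VEH and LEM libraries; points are sums over the cells of a state and bars are exact Poisson 95% intervals (counting error only). Tmem119 was at 914 CPM (VEH) and 1076 CPM (LEM) in DAM-gated cells against 2200 and 2237 CPM in unmarked cells, while Siglech stayed between 1074 and 1190 CPM in both.

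As a log2 ratio of DAM-gated over unmarked cells, Tmem119 was at −1.27 (95% interval −1.31 to −1.22) in VEH and −1.06 (−1.09 to −1.02) in LEM. Cx3cr1 followed at −0.80 and −0.83, and Selplg at −0.76 and −0.65. The secreted pair was less affected, with Olfml3 at −0.29 and −0.21 and Sparc at −0.23 and −0.18. For Siglech the ratios were −0.05 and −0.03, and for Fcrls −0.02 and −0.01, with intervals for Fcrls that held 0 in both libraries. The Fcrls values joined sexes that went opposite ways. In VEH, Fcrls went from 1262 to 1436 CPM in female and from 918 to 797 CPM in male cells. In LEM it went from 1315 to 1383 CPM and from 1321 to 1277 CPM, with overlapping intervals in male cells. By a called change of at least 1 on the log2 scale, 1 of 7 members (Tmem119) was lower in each library, where 4.71% (VEH) and 4.47% (LEM) of all genes tested were called lower and 4.49% and 3.81% higher. The median over the 7 was −0.29 in VEH and −0.21 in LEM.

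These ratios depend on the scale. The median over all genes tested was itself −0.29 in VEH and −0.30 in LEM. Relative to that median, Tmem119 was at −0.98 and −0.76, Cx3cr1 at −0.51 and −0.53 and Selplg at −0.47 and −0.35, so these 3 stayed lower on both scales. Siglech turned to 0.24 and 0.27, Fcrls to 0.27 and 0.29, Sparc to 0.06 and 0.12 and Olfml3 to 0.00 and 0.09, so the direction of these 4 flips with the scaling. DAM-gated cells were also deeper, with medians of 11242 and 11737 counts against 5765 and 5741 in unmarked cells. In cells thinned to 2000 counts, Tmem119 was found in 76.3% of VEH and 74.9% of LEM DAM-gated cells, against 95.5% and 96.1% of unmarked cells, whereas Siglech was found in 81.5% and 86.6% against 85.4% and 87.1%.

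The lower levels were graded. The series took thinned cells of the unmarked, intermediate, DAM-gated, MHC class II high, Apoe-high, Ccl3 and Ccl4 high and immediate early high states. Tmem119 in VEH was at 2159 CPM with none of the 5 gate genes counted, 1654 with 1, 1012 with 2 and 709 with 3. In LEM it was at 2209, 1848, 1010 and 845 CPM. Cx3cr1 went through 3227, 2723, 1870 and 1779 CPM in VEH and 3197, 2741, 1862 and 1655 CPM in LEM. Selplg went through 4275, 3587, 2391 and 2128 CPM in VEH and 4228, 3648, 2708 and 2409 CPM in LEM. The intervals of these 3 genes in the bins with 2 and with 3 gate genes overlapped, except those of Tmem119 in VEH. For each of these genes most of the fall lay between the bins with none and with 2 gate genes. Siglech ran from 1089 to 1110 CPM and Fcrls from 1009 to 1041 CPM over the same bins in VEH; in LEM, Siglech ran from 1167 to 974 CPM and Fcrls from 1290 to 1284 CPM. The VEH bin with 3 gate genes held 86 cells and the LEM one 116. LEM had a further bin of 26 cells with 4 or 5 gate genes. There Tmem119 was at 750 CPM, Cx3cr1 at 1481 CPM and Selplg at 2442 CPM, not below its level with 3. Fcrls in this bin was at 2000 CPM (interval 1634 to 2423), above its 1290 CPM with none. Olfml3 was at 2019 CPM, with an interval (1652 to 2444) that held its level with none. Olfml3 differed between libraries at 3 gate genes, at 1052 CPM in VEH and 1534 CPM in LEM, from 1587 and 1830 CPM with none.

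**Figure D2:**
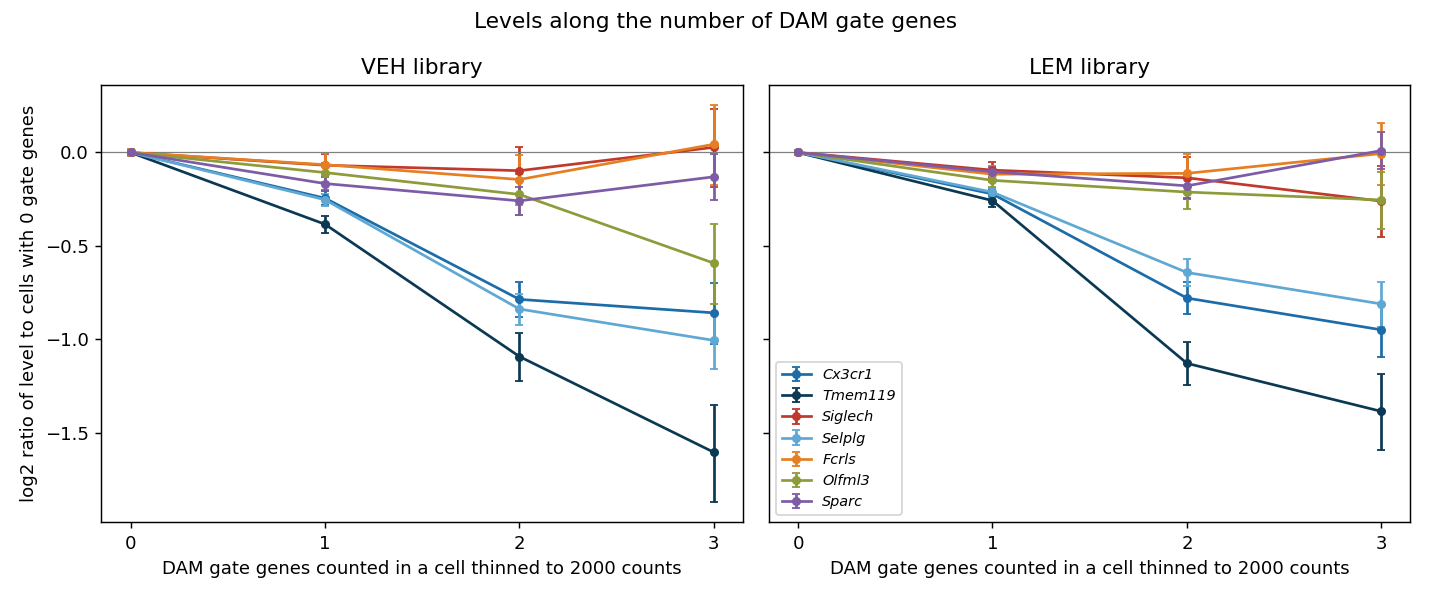
Log2 ratio of each gene's level to its level in cells with none of the 5 DAM gate genes (y axis), against the number of gate genes counted in a cell thinned to 2000 counts (x axis), in VEH and LEM, without the LEM bin of 26 cells with 4 or 5 gate genes; bars are exact Poisson 95% intervals. Tmem119, Cx3cr1 and Selplg run down through all 4 bins in both libraries, and Fcrls ends near its starting level, 1041 against 1009 CPM in VEH. For Tmem119, Cx3cr1 and Selplg the intervals in the last 2 bins overlap, except those of Tmem119 in VEH.

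For Tmem119, Selplg and Cx3cr1, the intermediate and the MHC class II high states lay between unmarked and DAM-gated cells. In intermediate cells, with 2 gate genes, Tmem119 was at −0.65 in VEH and −0.51 in LEM relative to unmarked cells, Selplg at −0.49 and −0.42 and Cx3cr1 at −0.37 and −0.34. In cells high in MHC class II genes outside the DAM gate, Tmem119 was at −0.55 and −0.49, Selplg at −0.46 and −0.37 and Cx3cr1 at −0.35 and −0.41. The order of these 3 was not the same in the last state of LEM, where Cx3cr1 was below Selplg. The MHC class II high cells also held 79.7 CPM (VEH) and 83.4 CPM (LEM) of the 7 markers of border-associated macrophages named below. Unmarked cells held 2.78 and 1.91 CPM of them, and DAM-gated cells 1.38 and 1.02 CPM. What part of the levels in MHC class II high cells came from macrophages was not tested. The other members did not all lie in between. In LEM intermediate cells Siglech (1073 CPM) and Fcrls (1233 CPM) lay under their DAM-gated levels of 1164 and 1310 CPM. In VEH the intervals of both overlapped those of DAM-gated cells. Sparc was under in both libraries, at 2892 and 3113 CPM against 2976 and 3190 CPM, with overlapping intervals. Olfml3 was at 1382 and 1633 CPM, against 1345 and 1633 CPM in DAM-gated cells. In interferon-responsive cells the 7 genes lay between −0.19 and −0.03 in VEH and between −0.34 and −0.13 in LEM, where Tmem119 (−0.34) and Cx3cr1 (−0.32) were lowest and Cx3cr1 was close to its value in intermediate cells, with an all-gene median of −0.10 in VEH and −0.13 in LEM.

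Apoe, an apolipoprotein gene that DAM cells also raise, was used for a further gate, in which most of the 7 genes lay close to their level in unmarked cells; at the highest counts of thinned cells, given with the library comparison, all 7 were lower. In Apoe-high cells (at least 30 Apoe counts, outside the DAM gate) Cx3cr1 was at −0.05 in VEH and −0.13 in LEM, Tmem119 at −0.05 and −0.11 and Selplg at −0.07 and −0.08. Fcrls was the exception and differed in sign between libraries, −0.21 in VEH (911 CPM) and 0.15 in LEM (1464 CPM). Apoe-high cells were 13.4% female in VEH and 11.9% in LEM, against 39.9% and 44.9% of unmarked cells, and the part of this in the Fcrls value was not tested beyond the values by sex given with the library comparison.

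Dividing cells gave a different order. In mitotic cells (130 VEH, 196 LEM) Siglech was at −0.68 in VEH and −0.67 in LEM, and Cx3cr1 at −0.65 and −0.60. Tmem119 was at −0.46 and −0.41, and Selplg, which ranked among the most reduced in DAM-gated cells, only at −0.20 and −0.15. Fcrls was higher than in unmarked cells, at 0.17 and 0.16 in mitotic cells and 0.59 and 0.25 in S-phase cells (37 and 55 cells). Siglech was thus lowest among microglial states in mitotic cells (695 and 749 CPM) and Fcrls highest in S-phase cells (1583 and 1574 CPM). The LEM interval of Fcrls in S-phase cells overlapped those of mitotic and of Apoe-high cells. An all-gene median of 0.08 and 0.06 in mitotic cells does not change these directions.

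Border-associated macrophages (BAM), which the sort can also hold, were gated on at least 3 of Mrc1, Pf4, F13a1, Cd163, Lyve1, Ms4a7 and Cbr2. Summed over both libraries, all 7 genes in the 93 BAM-gated cells (25 VEH, 68 LEM) were lower than in unmarked cells, from −0.23 for Fcrls to −1.09 for Sparc, with Selplg at −1.06, Tmem119 at −0.92, Olfml3 at −0.88, Siglech at −0.76 and Cx3cr1 at −0.54. By a log2 ratio of at least 1, 2 of 7 (Sparc and Selplg) were called lower, where 4.16% of all genes were. Both were past it in LEM (−1.16 and −1.10), beside 5.83% of all genes. In VEH 0 of 7 were, beside 12.3%, and Tmem119 was lowest there (−0.98), with Sparc at −0.94. The remaining levels were not low: Cx3cr1 was at 2333 CPM in VEH and 2198 CPM in LEM. Single cells were mixed, since 45.5% of thinned VEH and 26.9% of LEM BAM-gated cells carried all 7 genes while 18.2% and 14.9% carried 2 or fewer. These cells' summed microglial markers were 22936 and 22096 CPM, and how much of the members' counts came from microglia in the same droplets was not tested.

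Droplets holding choroid plexus epithelium (at least 3 of Ttr, Enpp2, Kcnj13, Folr1 and Clic6), cells presumed to lack these genes, were taken as a comparison. In the 182 such droplets of both libraries the 7 ratios to unmarked cells lay between −1.05 (Tmem119) and −0.80 (Fcrls), so the members kept close to 1 common ratio to each other. By a log2 ratio of at least 1, 2 of 7 were called lower, against 11.7% of all genes. In VEH it was 0 of 7, with a lowest value of −0.83, and in LEM 3 of 7, with a lowest value of −1.14, beside 10.7% and 17.5% of all genes. Of the thinned droplets 11.6% in VEH and 18.5% in LEM held none of the 7, while 25.6% and 21.5% held all. These droplets had medians of 9522 and 8708 counts, against 5765 and 5741 in unmarked cells, and Tmem119 was found in 67.4% and 56.9% of them after thinning. Sparc was found in more of them, 81.4% and 73.1%, than any other member, with Selplg at 67.4% and 66.2%. Whether the epithelium itself holds Sparc was not tested. The droplets were thus mixed, and their mean is no even background that could be taken off another state. Several levels in other states lay near that mean or under it. In DAM-gated cells these were Tmem119 (914 and 1076 CPM, against 1238 and 1018 CPM in the droplets), Cx3cr1 in VEH (1874 against 1928 CPM) and Selplg in VEH (2586 against 2524 CPM). In VEH mitotic cells they were Siglech (695 against 656 CPM) and Cx3cr1 (2075 against 1928 CPM). Tmem119 was found in 76.3% and 74.9% of thinned DAM-gated cells. What part of these levels came from free RNA was not tested. In BAM-gated cells the intervals of Cx3cr1 and Fcrls lay above those in the droplets (−1.01 and −0.80), those of Tmem119, Siglech, Selplg and Olfml3 overlapped them, and that of Sparc lay below.

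Between the libraries most members differed little. Over all cells Cx3cr1 was at 3107 CPM in VEH and 3056 CPM in LEM, Tmem119 at 2051 and 2078 CPM, and Selplg at 4157 and 4088 CPM. The log2 ratios of LEM over VEH were −0.02, 0.02 and −0.02, with 0.05 for Sparc (3399 and 3517 CPM) and 0.08 for Siglech (1095 and 1162 CPM). Olfml3 was higher in LEM, at 1586 and 1808 CPM (0.19), and Fcrls more so, at 1042 and 1318 CPM (0.34, 0.33 to 0.35). Past an absolute log2 ratio of 0.25, 1 of 7 members (Fcrls) was called higher and 0 lower, where 3.18% of 9359 genes were called higher and 2.62% lower; the median over the 7 was 0.05 and that over all genes 0.01.

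Within unmarked microglia the values were close to those over all cells, while for Fcrls in Apoe-high cells the ratio was 0.68. In unmarked microglia Fcrls was at 0.33, Olfml3 at 0.20, Siglech at 0.09, Sparc at 0.05, Tmem119 at 0.02, Cx3cr1 at 0.00 and Selplg at −0.02, with 1 of 7 called higher and 0 lower (3.48% and 2.49% of all genes). In DAM-gated cells the ratio of LEM over VEH was 0.34 for Fcrls, 0.28 for Olfml3 and 0.24 for Tmem119. There 2 of 7 members were called higher and 0 lower, where 13.1% of all genes were called higher and 11% lower. The difference in Tmem119, 1076 CPM against 914 CPM, was not shared by the sexes, with −0.04 in female and 0.39 in male cells, and that in Olfml3 was 0.10 and 0.41.

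The difference in Fcrls lay mostly in male cells. Fcrls was at 1270 CPM in female and 910 CPM in male cells of VEH, and at 1310 and 1332 CPM in those of LEM. Male VEH cells thus stood apart from the other 3 groups. LEM over VEH was 0.04 in female cells and 0.55 in male cells. In female cells 0 of 7 members were called in either direction (5.47% of all genes higher, 5.89% lower), with a range from 0.00 for Selplg to 0.13 for Olfml3. In male cells 1 of 7, Fcrls, was called higher and 0 lower (5.08% and 3.45% of all genes), with Olfml3 at 0.23 and the others between −0.07 and 0.05.

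**Figure D3:**
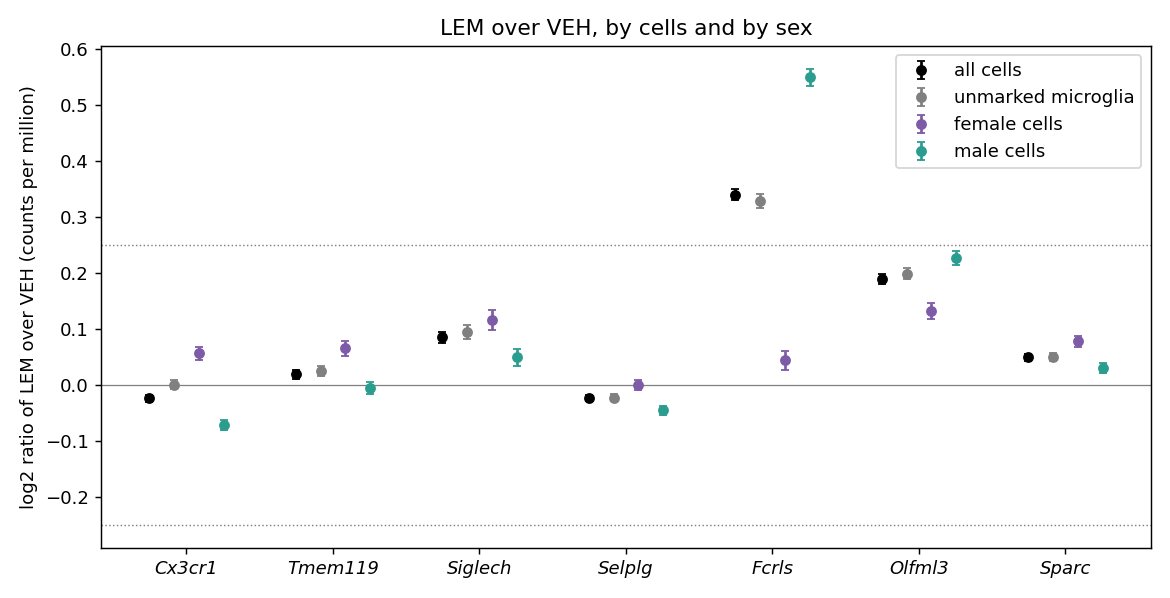
Log2 ratio of LEM over VEH in CPM (y axis) for the 7 genes (x axis), over all cells, unmarked microglia, female cells and male cells; bars are exact 95% intervals (counting error only) and dotted lines mark the absolute ratio of 0.25. Fcrls lies at 0.55 in male and 0.04 in female cells, and the other 6 genes lie within the dotted lines in all 4 comparisons.

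The sexes of 1 pool are different mice under 1 treatment, and differences between sexes and between mice cannot be told apart. Female over male, Fcrls was at 0.48 in VEH and −0.02 in LEM. In VEH 1 of 7 members was called higher in female cells and 0 lower (6.66% and 4.31% of all genes), and in LEM 0 in either direction (4.17% and 3.73%). The other members differed between the sexes of a library by at most 0.16 in size, the value of Siglech in LEM, which was higher in female cells in both libraries (0.09 in VEH).

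The pattern of Fcrls by sex was not the same in each state. In unmarked cells it was at 1262 CPM in female and 918 CPM in male VEH cells, and at 1315 and 1321 CPM in LEM. In DAM-gated cells the gap in VEH was wider, 1436 CPM in female and 797 CPM in male cells, against 1383 and 1277 CPM in LEM. In Apoe-high cells both sexes of VEH were low, 957 and 901 CPM (92 and 597 cells), and both of LEM were high, 1521 and 1452 CPM (187 and 1380 cells). LEM over VEH was there 0.67 in female and 0.69 in male cells. Mice cannot be told apart within a sex, and whether single mice carry these values was not tested.

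**Figure D4:**
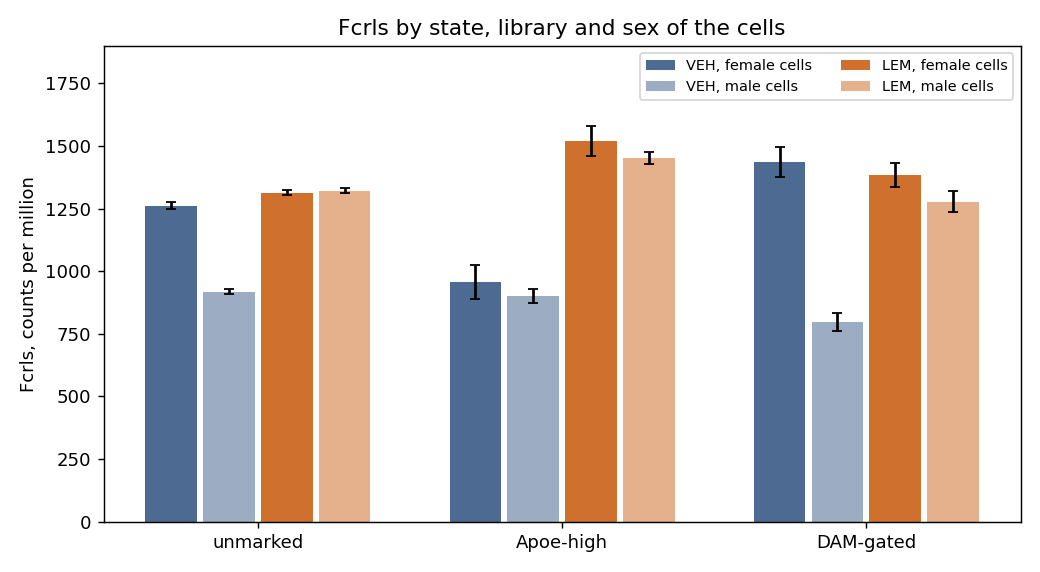
Fcrls in CPM (y axis, from 0) in unmarked, Apoe-high and DAM-gated cells (x axis) by library and sex of the cells; bars are sums over cells and error bars exact Poisson 95% intervals. Male VEH cells are lowest in unmarked and DAM-gated cells (918 and 797 CPM), and in Apoe-high cells both VEH sexes lie under both LEM sexes.

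Along Apoe counts in thinned cells with no DAM gate gene, Fcrls also took opposite courses. In VEH it went from 1062 CPM at 0 Apoe counts to 927 CPM at 6 to 10 counts, and in LEM from 1183 to 1418 CPM. In VEH Cx3cr1 and Tmem119 were level over that range, at 3242 and 3278 CPM and at 2150 and 2150 CPM. In LEM Tmem119 was level (2215 and 2211 CPM) and Cx3cr1 went from 3253 to 3113 CPM. Siglech went from 1125 to 1025 CPM in VEH, and Sparc rose in both libraries, from 3347 to 3633 and from 3436 to 3660 CPM. Above 20 Apoe counts (110 VEH and 240 LEM cells) all 7 genes were lower than at 0 counts in both libraries, with Selplg at 2995 and 3294 CPM against 4315 and 4189 CPM. The bins were not split by sex. Apoe-high cells were 13.4% female in VEH and 11.9% in LEM, against 39.9% and 44.9% of unmarked cells. Fcrls in unmarked cells was at 1262 CPM in female and 918 CPM in male VEH cells, and at 1315 and 1321 CPM in LEM. What part of the courses of Fcrls came from the mix of sexes was not tested.

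The genes whose levels ran most like a member's were searched over 20 profiles (10 states in each library) among 7526 genes. For Cx3cr1 these were P2ry13 (r = 0.97), a purinergic receptor, Ddx5 (0.96) and Snn (0.95). For Tmem119 they were Clec4a2 (0.98), Camk2n1 (0.97) and Alox5ap (0.96), and for Selplg Tjp1 (0.95), Vps37b (0.94) and Casp8 (0.94). Siglech ran with Fcgr3 (0.95), Ndfip1 (0.93) and Cebpa (0.93). Fcrls ran with Olfml3 (0.82), Coro1a (0.78) and Qpct (0.76), Olfml3 with Pon3 (0.89), Fcrls (0.82) and Lman1 (0.80), and Sparc with Lgmn (0.79), Cmas (0.78) and Cebpzos (0.77). Profiles of 1 library share its cells and its depth, so these are descriptions. The 10 states include the class of cells under 2000 counts. Fcrls and Olfml3 were both higher in LEM over all cells (0.34 and 0.19), so their r also holds the difference between libraries. The part of that difference in r was not tested.

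Between members, Tmem119 and Selplg were closest (r = 0.93), followed by Cx3cr1 and Tmem119 (0.87). Siglech was near 0 with Tmem119 (0.09) and with Fcrls (0.06) and at 0.47 with Cx3cr1, and Olfml3 and Sparc were at 0.77. Fcrls was near 0 with Tmem119 (−0.01), with Selplg (−0.08) and with Cx3cr1 (−0.08). Each r of Fcrls also holds its difference between libraries, and the part of that difference was not tested.

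Most other genes of the homeostatic programme were, like most genes tested, lower in DAM-gated than in unmarked cells. Of 30 such genes, 28 were lower in VEH and 27 in LEM, with medians of −0.77 and −0.80, where the medians over all genes tested were −0.29 and −0.30. In each library 8 were called lower and 1 higher, beside 4.71% and 4.47% of all genes called lower and 4.49% and 3.81% called higher. The smallest ratios were those of Crybb1 (−2.16 and −1.70) and Ecscr (−2.12 and −1.87). The largest were those of Serpine2 (1.41 and 1.57), a secreted protease inhibitor, and Tgfbr2 (0.43 and 0.37), a TGF-beta receptor, followed in LEM by Cst3 (0.03). Tmem119 therefore lay below the median of this list and Siglech and Fcrls above it. Between libraries the list's median was −0.04, with 13 higher and 17 lower. None was called higher and 2 were called lower, Upk1b (−0.31) and Ecscr (−0.27), beside 3.18% and 2.62% of all genes. Upk1b, named after its value was seen, was at 0.07 in female and −0.45 in male cells, and Ecscr at −0.62 and −0.05.

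Several ligands were scarce in these libraries, whereas the adaptor of Siglech and Tgfb1 were not. For Cx3cl1, the ligand of Cx3cr1 made by neurons, 22 VEH and 27 LEM counts were found. Selectins that bind Selplg were as scarce, Selp with 7 and 5 counts and Sele with 0 and 0. Tyrobp, the adaptor of Siglech, was abundant at 2909 and 3014 CPM and higher in DAM-gated cells by 1.61 in both libraries, against the level course of Siglech. Its relative Hcst was at 20.84 and 17.03 CPM and also higher there (1.497 and 1.674). Tgfb1 was at 516 and 500 CPM, with −0.27 and −0.22 in DAM-gated cells, and Bmp4, a partner of Olfml3, had 0 and 5 counts.

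Relatives of the members often moved otherwise than the member. Siglece was at 56.7 and 58.1 CPM and lower in DAM-gated cells (−2.21 and −2.24), as was Cd33 (−1.02 and −1.01), whereas Siglecf (48.1 and 58.6 CPM) was higher (1.42 and 0.76). Siglecg (712 and 995 counts) was lower there (−2.44 and −2.07), Mag (28.0 and 29.9 CPM) at −1.06 and −0.75, and Cd22 (639 and 1158 counts) at 1.23 and 1.16. Siglec1, with 77 and 138 counts, stood higher in BAM-gated than in unmarked cells (7.27 on the log2 scale).

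Fcrl1, which lies 112.6 kb from Fcrls, was at 34.1 CPM in VEH and 50.4 CPM in LEM (0.56), with 0.23 in female and 0.80 in male cells, so it differed the same way as Fcrls; in DAM-gated cells it was lower (−1.52 and −1.32), unlike Fcrls. Fcrl5 (37 and 26 counts), Fcrla (136 and 163) and Fcrlb (208 and 311) were scarce. Olfml2b was at 22.1 and 26.8 CPM (0.28 between libraries; −1.505 and −1.380 in DAM-gated cells), while Olfml1 had 10 and 23 counts and Olfml2a 24 and 43. Among relatives of Sparc, Spock1 had 408 and 728 counts, Sparcl1 68 and 148, Smoc1 58 and 44, Smoc2 2 and 1, Spock2 24 and 28 and Spock3 29 and 22. Of the chemokine receptors beside Cx3cr1, Ccr2 (567 and 800 counts) and Ccr1 (117 and 386) stood higher in BAM-gated than in unmarked cells (4.08 and 6.77), and Cxcr4 had 37 and 91 counts.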

How the data were processed

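Single-cell 5′ RNA libraries of sorted PSAPP microglia (1 VEH, 1 LEM, each a pool of 5 mice) were analysed. The authors deposited whole-number UMI counts per gene and cell, made with Cell Ranger 8.0.0 per the submitters' notes on an mm10 reference; their methods also name SoupX for free RNA and filters on genes, counts and mitochondrial share, and it is not stated whether the deposited counts are those after SoupX. In the table the least number of genes per cell was 501 and the largest total 19999. The files hold cell numbers and no barcode sequences, so barcodes shared between libraries could not be counted. Depth was 116229678 counts in VEH and 160752298 in LEM.

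Cells were gated in a fixed order on raw marker counts; Clec7a is not analysed here. The order was choroid plexus, BAM, mitotic (at least 4 of 8 genes), S phase (4 of 8), interferon (4 of 8), DAM, MHC class II (3 of 4), intermediate (2 of the DAM genes), Ccl3 and Ccl4 (sum of 20), Apoe (30), immediate early genes (sum of 60) and cells under 2000 counts. Gate minima were set after the distributions of the gate genes had been seen. Counts were summed per library or state and scaled to CPM. Ratios were log2 ratios of CPM with exact conditional 95% intervals, CPM values had exact Poisson intervals, and shares had exact Clopper-Pearson ones. Genes tested were counted in at least 5% of cells of either group; called means a log2 ratio of at least 0.25 between libraries or sexes and 1 between states. Doublets (9.82% in VEH and 9.85% in LEM by Scrublet in scanpy 1.11.5) were kept and left out as an alternative. Female cells held Xist and no Y-linked count, male cells the reverse. The ratio step was tested on simulated data. Python 3.11.15, numpy 2.4.6, scipy 1.17.1 and pandas 2.3.3 were used. Named genes were the 7 members, the 3 genes most alike each, all counted ligands, partners and paralogs, and from 30 other homeostatic genes those past 0.25 between libraries in 1 direction in both sexes or with the 3 largest and 3 smallest DAM ratios. The members and lists were chosen with earlier results of these data known. Some genes that this rule names are not reported here.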

Additional observations from a re-analysis of the deposited data

Results flagged for a closer look

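For Cx3cr1 the LEM over VEH ratio had opposite signs in the sexes with intervals that left out 0 in both, at a log2 ratio of 0.056 for female and −0.072 for male cells. Tmem119 (0.066 and −0.006) and Selplg (0.000 and −0.045) also had opposite signs, with an interval that held 0 in 1 sex each. None of these differences between the sexes was tested, since each sex of a library is 1 pool.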

How the results depend on the processing

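No paired analysis was possible because each treatment is 1 pooled library with no replicate. Over all cells the median LEM over VEH ratio of the 7 members, 0.05, was 0.0381 by median of ratios, 0.0384 without the 20 most abundant genes in the totals, 0.0588 with cells weighted equally, 0.0656 in female cells, 0.0300 in male cells and 0.0559 in thinned cells. In unmarked microglia, from 0.05, it was 0.0365, 0.0379, 0.0626, 0.0870, 0.0250 and 0.0622 under those, and 0.0578 with the sexes weighted equally. The DAM-gated over unmarked median was 0.0044 in VEH and 0.092 in LEM by median of ratios, which by its construction moves the median of all genes to 0. It was −0.22 in female and −0.35 in male VEH cells, −0.34 in VEH with 1 more gate gene, and −0.23 in male LEM cells. The BAM-gated median, −0.88, was −1.21 with cells weighted equally, −1.17 in female cells, −1.11 in male cells and −1.11 in thinned cells; the cause was not tested. The other 28 alternatives of these 5 medians moved them by less than the counting interval of the median member, the one restricted to cells low in immediate early genes (0.05) being added after seeing the data. Fcrls ranged from 0.04 in female to 0.55 in male cells over 11 alternatives and was higher in LEM in all of them. Over all cells Cx3cr1, Tmem119 and Selplg each changed sign in 1 of 11. In unmarked microglia Cx3cr1, at 0.00, kept its sign in 4 of 9 (−0.051 to 0.076), and Tmem119 and Selplg in 8 of 9. Fcrls in DAM-gated over unmarked cells kept its sign in 7 of 10 in VEH and 4 of 10 in LEM. With 25 and 68 BAM-gated and 37 and 55 S-phase cells, the number of cells limits those values.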

Other observations

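The neighbourhood of Fcrls held other genes that differed between the libraries; it was looked at after the value of Fcrls had been seen. Within 500 kb of Fcrls, 6 further genes were tested, and 4 lay past an absolute log2 ratio of 0.25, against 5.80% of all 9359 genes tested. Fcrl1 was higher in LEM. Lrba, 468.1 kb away (chromosome 3, 86224680 to 86782692, GRCm38), was lower in LEM, at 138.2 CPM in VEH and 67.6 CPM in LEM (−1.03), with −0.68 in female and −1.67 in male cells. Gm37876, a gene model within the span of Lrba, was at 20.4 and 7.65 CPM (−1.41), and its reads and those of Lrba may not be separable. Cd1d1 was at 9.18 and 6.67 CPM (−0.46), with −0.44 in female and −0.54 in male cells. Etv3 (0.04) and Arhgef11 (−0.14) lay within the limit. Within 1 Mb 4 of 14 genes were past it, within 2 Mb 5 of 43 and within 5 Mb 6 of 78 (7.69%). Around Olfml3, on the same chromosome, 0 of 7 tested genes within 500 kb were past it, and around Cx3cr1 1 of 9, Gm33858 (0.72), which overlaps the span of Cx3cr1.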
